A study of Homo sapiens with 7 samples.

Results

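The 6 genes examined here, HMGA1, HMGA2, IGF2BP1, IGF2BP2, IGF2BP3 and LIN28B, were chosen by name out of 56236 genes with an annotated transcript in the deposited tables. All 6 were found. They were followed in TE5 and KYSE140, established cell lines of esophageal squamous cell carcinoma (ESCC). TE5 cells carried a non-targeting scramble shRNA or an shRNA against TP63, SOX2 or the long non-coding RNA CCAT1, and gave 4 RNA-Seq libraries. KYSE140 cells carried the scramble shRNA or an shRNA against TP63 or SOX2, and gave 3 libraries. The silencing was designed to find genes that depend on these transcription factors and on CCAT1. Each condition was sequenced once per line, so that the cell lines stand in for replicates, and the labels name 1 shRNA for each target in a library. The labels give the same culture medium with serum for all 7 libraries.

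The HMGA proteins are small chromatin proteins that bind the minor groove of AT-rich DNA through AT-hooks and bend or open it for transcription factors. The IGF2BP proteins bind many mRNAs in the cytoplasm, control their stability, transport and translation, and read N6-methyladenosine (m6A), while LIN28B binds the precursors of let-7 microRNAs and blocks their maturation. Genes of both groups are called oncofetal where they are abundant in the embryo, mostly silent in adult tissue, and found again in many carcinomas. Mature let-7 represses several of them through sites in their 3′ UTRs, and HMGA2 is the textbook case of such a target.

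The let-7 seed and its matches in HMGA2 are shown first, since matches were found in both DNA-binding and RNA-binding members. The microRNA comes from RefSeq (GRCh38.p14), with the seed (bases 2 to 8) in capitals. All 9 human let-7 and miR-98 5p forms looked up in that table have this seed.
hsa-let-7a-5p: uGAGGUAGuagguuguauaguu

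The 7 letters complementary to the seed, CTACCTC, were searched on the sense strand of the 3′ UTR of each gene's most abundant coding transcript, from the stop codon on. Where an A follows, as in the 8-letter word CTACCTCA that contains the former, it is also in capitals. HMGA2 held 4 matches, at chr12:66357079-66357100, chr12:66358314-66358335, chr12:66358726-66358747 and chr12:66359579-66359600 of hg19 (+ strand), in this order.
HMGA2 match 1: ccaacgttcgatttCTACCTCA
HMGA2 match 2: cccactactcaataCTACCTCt
HMGA2 match 3: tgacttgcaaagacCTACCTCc
HMGA2 match 4: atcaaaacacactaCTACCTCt

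IGF2BP1 and LIN28B held 4 matches each, 3 and 2 of them followed by A, and HMGA1, IGF2BP2 and IGF2BP3 held 1 each. For comparison, the first match of LIN28B (chr6:105526688-105526709, + strand), the first of IGF2BP1 (chr17:47128424-47128445, + strand), that of IGF2BP2 (chr3:185362008-185362029, - strand), that of IGF2BP3 (chr7:23351414-23351435, - strand) and that of HMGA1 (chr6:34213607-34213628, + strand) read as follows.
LIN28B match 1: cccggttgcaaagtCTACCTCA
IGF2BP1 match 1: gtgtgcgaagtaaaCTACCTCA
IGF2BP2 match: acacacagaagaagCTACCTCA
IGF2BP3 match: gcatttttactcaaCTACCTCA
HMGA1 match: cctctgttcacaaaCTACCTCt

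For comparison, 10903 genes had 100 counts or more in all 7 libraries and a usable annotated 3′ UTR in their most abundant coding transcript. Of these genes, 9.6% held the 7-letter word in that 3′ UTR and 3.7% held the 8-letter word. The shorter word occurred 4 or more times in 6 of them, HMGA2 and IGF2BP1 included. Longer 3′ UTRs hold a word more often: among 384 genes with a 3′ UTR of 80% to 125% of the length of that of IGF2BP1, 34.6% held it, against 8.8% of the 1537 genes compared with HMGA1 in the same way. The 3′ UTRs were those of GENCODE 44, whose transcript lengths differ from those in the deposited tables for 5 of the 6 genes (4117 against 4473 bases for HMGA2). MicroRNAs were not measured, and a match is a description of the sequence.

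The genes lie at chr6:34204650-34214008 (HMGA1, ENSG00000137309), chr12:66218240-66360071 (HMGA2, ENSG00000149948), chr17:47074747-47133507 (IGF2BP1, ENSG00000159217), chr3:185360918-185542830 (IGF2BP2, ENSG00000073792, - strand), chr7:23349828-23510110 (IGF2BP3, ENSG00000136231, - strand) and chr6:105384491-105531207 (LIN28B, ENSG00000187772) of hg19. IGF2BP2 is located on the long arm of chromosome 3 between SOX2 and TP63.

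Estimated counts summed to between 68532611 and 98036494 per library. In normalized counts, the shTP63 libraries held TP63 at 25.4% (TE5) and 26.1% (KYSE140) of scramble. SOX2 stood at 39.6% upon SOX2 silencing in TE5 but at 77.4% in KYSE140. The level of CCAT1 was not analysed here. Of 10 squamous epithelium markers, 9 were at 1 TPM (a unit of level scaled for transcript length and library depth) or more in each TE5 library, and all 10 in each KYSE140 library, with summed levels of 1348 to 2217 TPM in TE5 and 9949 to 20433 TPM in KYSE140. Of the lists for other cells, 1 to 3 of 10 glandular, 1 or 2 of 10 fibroblast and 1 or 2 of 9 leukocyte and endothelial markers reached 1 TPM, led by CDX2 in TE5, COL1A1 and CD68. The scramble library of each line was sequenced in a lane of its own, for TE5 on a separate flow cell, and lane and silencing cannot be told apart where all knockdowns of a line shift together. The shTP63 and shSOX2 libraries of a line shared a lane.

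The levels of the 6 genes spanned more than 3 orders of magnitude per unit of length. HMGA1 was the highest of them in all 7 libraries, at 641 TPM in TE5 scramble, 482 TPM in TE5 shTP63, 547 TPM in TE5 shSOX2, 454 TPM in TE5 shCCAT1, 639 TPM in KYSE140 scramble, 526 TPM in KYSE140 shTP63 and 513 TPM in KYSE140 shSOX2. It lay above the 99th percentile of detected genes throughout, and each scramble library was the highest of its line.

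IGF2BP2 was at 65.2, 56.0, 74.5 and 52.1 TPM in TE5 scramble, shTP63, shSOX2 and shCCAT1, and at 54.8, 39.4 and 55.8 TPM in KYSE140 scramble, shTP63 and shSOX2. IGF2BP3 was at 34.2, 55.4, 44.7 and 40.2 TPM in the TE5 libraries and at 85.8, 97.5 and 95.1 TPM in the KYSE140 libraries, in the same order of conditions. The order of these 2 genes therefore differed between the lines: IGF2BP2 ranked above IGF2BP3 in every TE5 library, most narrowly in shTP63, and below it in every KYSE140 library.

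HMGA2 was at 28.4, 22.4, 69.0 and 31.9 TPM in TE5 scramble, shTP63, shSOX2 and shCCAT1 and at 18.9, 13.5 and 36.0 TPM in KYSE140 scramble, shTP63 and shSOX2. Its highest library was the shSOX2 library in both lines, and its lowest was the shTP63 library in both lines. IGF2BP1 was at 9.95, 8.69, 12.9 and 10.3 TPM in the TE5 libraries and at 8.67, 15.2 and 15.9 TPM in the KYSE140 libraries; its rank among the 6 genes was 5 except in KYSE140 shTP63, where HMGA2 was lower. With 1 library a condition, neighbours in this order cannot be separated by a spread over replicates.

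LIN28B was nearly absent from TE5, with 2, 5, 1 and 0 estimated counts in the scramble, shTP63, shSOX2 and shCCAT1 libraries. In KYSE140 it had 79, 117 and 67 counts in the scramble, shTP63 and shSOX2 libraries, or 0.313, 0.317 and 0.210 TPM. Summed over libraries, LIN28B had 8 counts in TE5 and 263 in KYSE140, a ratio of 46.8 once each sum was divided by its library totals (exact 95% interval, counting error only, 23.4 to 109.5). The 0 counts in TE5 shCCAT1 allow up to 3 counts in that library.

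**Figure D1:**
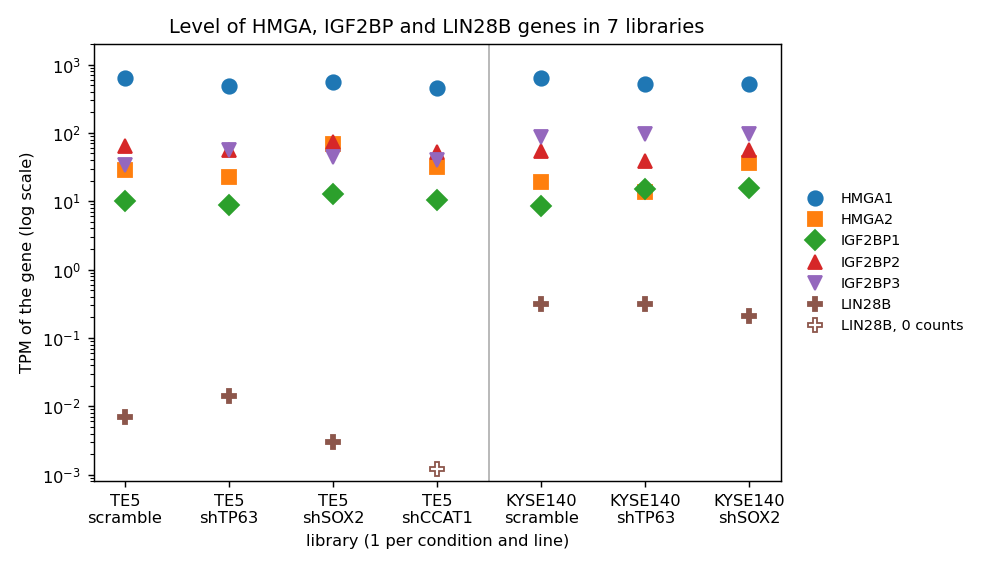
TPM on a log axis of the 6 genes in each of the 7 libraries, 1 point per gene and library, with TE5 left and KYSE140 right of the line; the open symbol is LIN28B at 0 counts, drawn at the bottom of the axis. HMGA1 lies between 454 and 641 TPM throughout, IGF2BP3 is higher in all 3 KYSE140 libraries than in all 4 TE5 libraries, and LIN28B is below 0.02 TPM in TE5.

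Silencing of SOX2 was accompanied by more HMGA2 in both lines, although SOX2 itself still stood at 39.6% of scramble in TE5 and 77.4% in KYSE140. In TE5, HMGA2 had 5378 normalized counts in the scramble library and 15674 in the shSOX2 library, which is 2.91-fold and a log2 fold change of 1.54 (95% counting interval 1.50 to 1.59). In KYSE140 it went from 4628 to 10482, which is 2.27-fold and a log2 fold change of 1.18 (1.12 to 1.24). The shTP63 libraries of the same lanes held 4004 counts in TE5 and 3117 in KYSE140, below the scramble of each line, so that in both lines the order was shSOX2, scramble, shTP63.

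Past a log2 fold change of 1, HMGA2 was 1 of 5 members with enough counts in TE5, where 6.31% of 22726 genes lay above 1 and 4.95% below -1, and 1 of 6 members in KYSE140, where 7.08% of 20747 genes lay above 1 and 6.17% below -1. On the TPM scale HMGA2 was at 1.28 in TE5 and, below 1, at 0.93 in KYSE140, where the balance of all genes past 1 also turned, from 1281 lower and 1469 higher to 1293 lower and 898 higher (1518 and 1280 under library totals). On normalized counts its percentile among all genes was 97.1 in TE5 and 94.5 in KYSE140, and among genes of its own expression decile 99.9 and 99.5. With both lines in 1 fit, HMGA2 rose by 1.34 on the log2 scale (SE 0.16, higher in 2 of 2 lines, adjusted p = 0.0605, edgeR's quasi-likelihood test). It was the only member called where 34 of 23438 genes (0.145%) had an adjusted p under 0.1, 0.124% lower and 0.0213% higher. At an unadjusted p under 0.05, 2 of the 6 members passed, where 8.94% of genes did. Of the members, DESeq2 called HMGA2 alone, where it called 4.75% of the 14804 genes to which it gave an adjusted p. The fall of SOX2 itself was not called by edgeR in this fit. DESeq2 called it, and its adjusted p was under 0.1 in 5 of 12 alternative settings.

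Of the squamous markers in the shSOX2 libraries, 7 of 10 were below scramble in TE5 (median -0.22) and 10 of 10 above it in KYSE140 (median 0.45). Of the fibroblast markers with enough counts, 6 of 6 were above scramble in TE5, 5 of them past 1 (median 1.28, led by COL3A1 at 2.44), and 3 of 6 in KYSE140 (median 0.17), while their summed level over all 10 went from 16.3 to 16.3 TPM in TE5 and from 56.2 to 71.4 TPM in KYSE140. In KYSE140, COL3A1 was higher from under 3 counts in scramble. Of the leukocyte and endothelial markers, 2 of 6 were above scramble in TE5 (median -0.03) and 3 of 4 in KYSE140 (median 0.48). The part of these shifts in the HMGA2 result was not tested.

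The call did not hold in every setting. The log2 fold change ranged from 1.18 to 1.51 over 12 alternatives, and 8 kept the adjusted p under 0.1. It was lost without the TE5 scramble library (adjusted p = 0.693 in edgeR's test, log2 fold change 1.19), without the KYSE140 scramble library (0.574 and 1.48), without the cell line as block (1 and 1.37) and when transcripts with no annotated gene were kept as features of their own (0.354 and 1.33).

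The difference between shTP63 and shSOX2 libraries does not rest on the scramble level, and these libraries of a line shared a lane. HMGA2 was lower in shTP63 than in shSOX2 by 1.84 on the log2 scale (fitted value -1.84, SE 0.16, lower in 2 of 2 lines, adjusted p = 0.0155, edgeR's quasi-likelihood test). In this comparison 2 of 6 members were called, HMGA2 and IGF2BP2, both lower, where 4.22% of 23438 genes were called, 2.41% lower and 1.8% higher. The HMGA2 call held in 10 of 12 alternatives and was lost without the block (adjusted p = 1) and with unannotated transcripts kept (0.127). In the same comparison 10 of 10 squamous markers were lower in shTP63 than in shSOX2 (median -0.72, 2 called, KRT5 and DSC3), and their part in the HMGA2 and IGF2BP2 results was not tested.

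Most of the HMGA2 signal was carried by 1 of its 11 transcripts. HMGA2-204, the coding transcript whose 3′ UTR holds the 4 matches above, made up 69.3% of the gene's TPM in TE5 scramble, 73.6% in shTP63, 86.3% in shSOX2 and 82.3% in shCCAT1. In KYSE140 it made up 82.2% in scramble, 75.0% in shTP63 and 89.0% in shSOX2. Its share in counts was 90.27% to 97.63% over all libraries. It went from 19.7 to 59.5 TPM in TE5 and from 15.5 to 32.0 TPM in KYSE140 upon SOX2 silencing. The short coding transcript HMGA2-202 was at 4.79 and 5.58 TPM in TE5 scramble and shSOX2 and at 1.44 and 2.47 TPM in KYSE140. The share of HMGA2-204 was highest in shSOX2 in both lines, but in TE5 it was above scramble in all 3 knockdowns, without a replicate in either line.

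**Figure D2:**
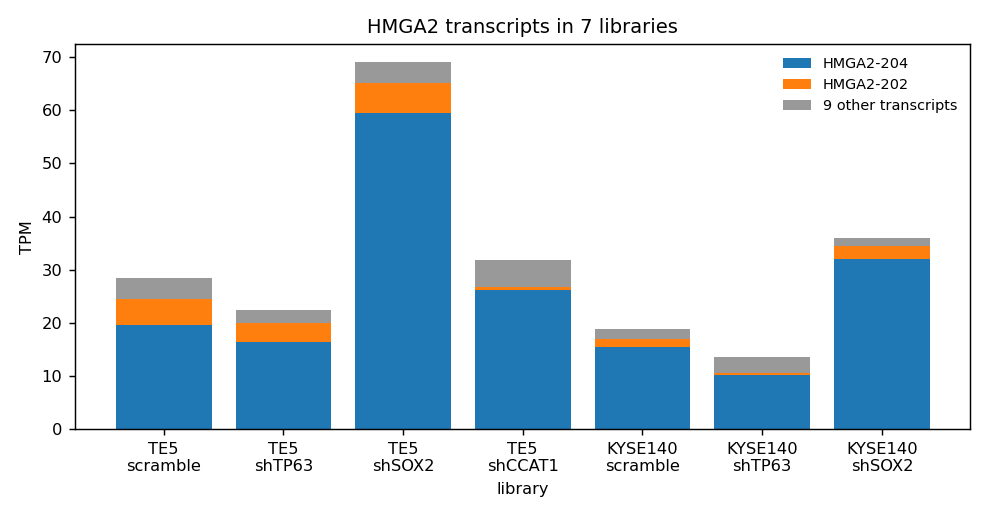
Stacked bars of HMGA2 TPM in each library, split into HMGA2-204, HMGA2-202 and the other 9 transcripts. The shSOX2 bars reach 69.0 TPM in TE5 and 36.0 TPM in KYSE140, and HMGA2-204 takes the largest part of every bar.

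Of HMGA2's 31-base words, 4.02% also occur in other genes, most of them in the antisense gene HMGA2-AS1. The antisense genes of HMGA2 were low. HMGA2-AS1 was at 0.135 to 0.961 TPM and RPSAP52, which overlaps HMGA2 on the other strand, at 0.06 to 2.82 TPM, with their highest values in TE5 shCCAT1. IGF2BP2-AS1 was higher in TE5 scramble, shTP63 and shSOX2, at 6.30, 13.0 and 10.4 TPM from 38.1, 90.6 and 49.2 counts. It was at 0.68 TPM in TE5 shCCAT1 and at most 0.053 TPM in KYSE140. The sources used here do not say whether the reads were counted by strand, so that reads of a gene and its antisense partner cannot be told apart. None of the 3 antisense genes listed (with IGF2BP2-AS1) was called by edgeR or by DESeq2 in either silencing; at an unadjusted p under 0.05 there were 0 for shSOX2 and 1 for shTP63.

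Upon TP63 silencing, 0 of 6 members were called by edgeR, where 0.939% of 23438 genes were called (0.742% lower and 0.196% higher); 3 passed an unadjusted p under 0.05, where 14.4% of genes did. DESeq2 called the same 3, HMGA1, HMGA2 and IGF2BP2, where it called 12.5% of the 14804 genes with an adjusted p. HMGA2 stood at 74.4% of scramble in TE5 (log2 fold change -0.43, counting interval -0.48 to -0.37) and at 67.4% in KYSE140 (-0.57, -0.64 to -0.50). The fitted value for both lines was -0.50 (SE 0.15, adjusted p = 0.227, edgeR), and 0.0467 with DESeq2. In the pairs, none of the 5 or 6 measured members lay past a log2 fold change of -1 or 1, where 5.61% of genes lay below -1 and 14.9% above 1 in TE5, and 4.28% and 9.08% in KYSE140.

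In the same shTP63 libraries, 10 of 10 squamous markers were below scramble in TE5 (median -0.59) and 9 of 10 in KYSE140 (-0.51). Of the fibroblast markers with enough counts, 6 of 6 were above scramble in TE5 (median 1.20) and 2 of 5 in KYSE140 (-0.56), and of the leukocyte and endothelial markers 8 of 8 in TE5 (0.74) and 2 of 4 in KYSE140 (0.05). Their part in the values of HMGA1, HMGA2 and IGF2BP2 was not tested.

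IGF2BP2, which stabilizes mRNAs of metabolism and growth, was below scramble in both lines upon TP63 silencing. Its normalized counts in TE5 were 11115 and 7594 (scramble and shTP63; log2 fold change -0.55, counting interval -0.59 to -0.51) and in KYSE140 10561 and 7027 (-0.59, -0.63 to -0.54). The values upon SOX2 silencing were 12176 counts in TE5 (0.13) and 11983 in KYSE140 (0.18). In normalized counts, both shTP63 libraries were the lowest of their line and both shSOX2 libraries the highest, whereas in TPM the lowest TE5 library was shCCAT1 (52.1, against 56.0 in shTP63). Counting only coding transcripts, the lowest TE5 library in TPM was again shTP63 (42.5, against 47.2 in shCCAT1).

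Fitted over both lines, IGF2BP2 was at -0.56 in shTP63 (SE 0.13, adjusted p = 0.144, edgeR; 0.0024 with DESeq2) and at 0.13 in shSOX2 (SE 0.13, adjusted p = 0.825, edgeR). Its difference between shTP63 and shSOX2 passed the test, with a fitted value of -0.70 (SE 0.13, lower in 2 of 2 lines, adjusted p = 0.0578, edgeR's quasi-likelihood test). Over 12 alternatives the difference ranged from -0.75 to -0.58 and the call held in 6; it was lost without the TE5 scramble (adjusted p = 0.170), TE5 shSOX2 (0.125), KYSE140 scramble (0.177) or KYSE140 shSOX2 (0.118) library, without the block (1) and with unannotated transcripts kept (0.164), all in edgeR's test. IGF2BP2 was spread mostly over the coding transcripts IGF2BP2-202, at 39.7% to 54.9% of its TPM, and IGF2BP2-201, at 23.7% to 37.5%. In counts these shares were 51.62% to 65.76% and 26.2% to 39.96%. Of the 31-base words of IGF2BP2, 14.7% also occur in 13 other genes.

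HMGA1, the other AT-hook gene, was lower than scramble in each of the 5 knockdown libraries. Its normalized counts were 64604 in TE5 scramble, 43566 in shTP63, 55857 in shSOX2 and 42402 in shCCAT1, and 72293 in KYSE140 scramble, 58387 in shTP63 and 65721 in shSOX2. The log2 fold changes were -0.57, -0.21 and -0.61 in TE5 and -0.31 and -0.14 in KYSE140. In TE5, shSOX2 was the knockdown nearest to scramble; in KYSE140 it was so in normalized counts but not in TPM. All knockdowns of a line share its scramble library and lane difference, whose part in this was not tested. The median of HMGA1's expression decile was itself below 0 in 4 of these comparisons: -0.16, -0.01 and -0.20 in TE5 and -0.03 in KYSE140 shTP63, against 0.08 in KYSE140 shSOX2.

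In the fit HMGA1 was at -0.43 in shTP63 (SE 0.14, adjusted p = 0.235, edgeR; 0.0385 with DESeq2) and at -0.20 in shSOX2 (SE 0.14, adjusted p = 0.743, edgeR), so neither passed edgeR's test. Over the alternatives the fitted values ranged from -0.56 to -0.34 and from -0.27 to -0.14. HMGA1-201 carried 67.0% to 73.1% of its TPM and HMGA1-202 12.9% to 18.5%. Of its 31-base words 18.1% occur in 8 other genes, led by the processed pseudogene HMGA1P1, but the pseudogenes HMGA1P1 to HMGA1P8 had at most 68 counts each in a library, against 52165 to 62654 for HMGA1.

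IGF2BP1, the member of its family with the longest 3′ UTR, was above scramble in all 5 comparisons of counts. Its normalized counts were 3340 in TE5 scramble, 3532 in shTP63, 4498 in shSOX2 and 3786 in shCCAT1, and 3742 in KYSE140 scramble, 5987 in shTP63 and 6460 in shSOX2. The log2 fold changes were 0.08, 0.43 and 0.18 in TE5 and 0.68 and 0.79 in KYSE140. The first of these changed sign when computed from TPM (-0.19), and the share of the long transcript IGF2BP1-201 was then 68.0% of TPM in TE5 scramble and 95.5% in TE5 shTP63. In counts its share was 95.66% and 99.65%, so the difference in TPM rests on few counts given to short transcripts.

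In the fit IGF2BP1 was at 0.38 in shTP63 (SE 0.17, adjusted p = 0.365, edgeR) and at 0.58 in shSOX2 (SE 0.17, adjusted p = 0.372, edgeR). Of 12 alternatives for shSOX2, 1 brought it under 0.1, that without the TE5 shTP63 library (0.0548). The values were larger in KYSE140 than in TE5 for both shRNAs, a difference between lines that was not tested. Both KYSE140 values rest on the same scramble library. As for HMGA1, all values of a line share its scramble library and lane difference, whose part in them was not tested.

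IGF2BP3, whose product binds mRNAs of proliferation and adhesion genes in many carcinomas, had 6256, 8601, 7903 and 6430 normalized counts in TE5 scramble, shTP63, shSOX2 and shCCAT1. In KYSE140 it had 18760, 20666 and 23329 in scramble, shTP63 and shSOX2. The log2 fold changes were 0.46, 0.34 and 0.04 in TE5 and 0.14 and 0.31 in KYSE140, and the interval of the shCCAT1 value included 0 (-0.01 to 0.09). The fitted values were 0.31 for shTP63 (SE 0.15, adjusted p = 0.412, edgeR) and 0.30 for shSOX2 (SE 0.15, adjusted p = 0.623, edgeR), and the difference between them was 0.01 (-0.17 to 0.12 over the alternatives, with both signs).

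IGF2BP3 shares 28.0% of its 31-base words with other genes, 17.1% with MALSU1 alone, and reads from those stretches fit more than 1 gene. Its coding transcript IGF2BP3-201 held 69.4% to 79.8% of the gene's TPM, and the retained-intron transcript IGF2BP3-217 held 11.2% to 16.6%. In counts, which are not scaled for length, these shares were 95.42% to 97.68% and 1.2% to 1.99%. Counting only coding transcripts, IGF2BP3 was at 25.3 to 38.4 TPM in TE5 and at 68.4 to 76.4 TPM in KYSE140, again with no overlap.

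LIN28B, the let-7 antagonist, could be compared in KYSE140 only. Its normalized count was 109 in scramble, 109 in shTP63 (log2 fold change -0.01, counting interval -0.43 to 0.425) and 83 in shSOX2 (-0.39, -0.89 to 0.10). Neither interval excludes 0, so no change was detectable at this depth. The fitted values, to which TE5 added at most 5 counts a library, were 0.22 for shTP63 (SE 0.54, adjusted p = 0.997, edgeR) and -0.49 for shSOX2 (SE 0.55, adjusted p = 0.853, edgeR), and the former took both signs over the alternatives (-0.07 to 1.03).

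**Figure D3:**
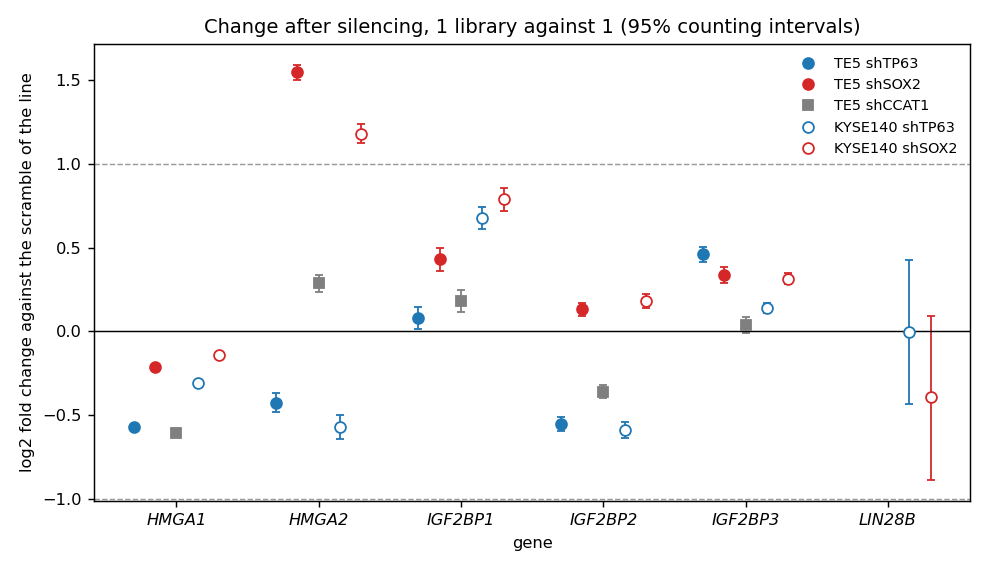
Log2 fold change of each gene in each knockdown library against the scramble of its line, with 95% counting intervals; filled symbols are TE5, open symbols KYSE140, and dashed lines mark -1 and 1. HMGA2 in shSOX2 is the only gene past a line, at 1.54 and 1.18, and LIN28B has values for KYSE140 alone.

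Silencing of CCAT1, done in TE5 alone among these libraries, left the 5 measured members between -0.61 and 0.29. None lay past -1 or 1, where 6.05% of 24112 genes lay below -1 and 11.9% above 1. HMGA2 was at 6559 normalized counts against 5378 in scramble (log2 fold change 0.29, counting interval 0.24 to 0.34), and IGF2BP2 at 8665 against 11115 (-0.36, -0.40 to -0.32). HMGA1 had its lowest value of all TE5 libraries here. With 1 library in 1 line, no test was possible, and bulk RNA cannot tell fewer cells of a type from less RNA per cell.

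**Figure D4:**
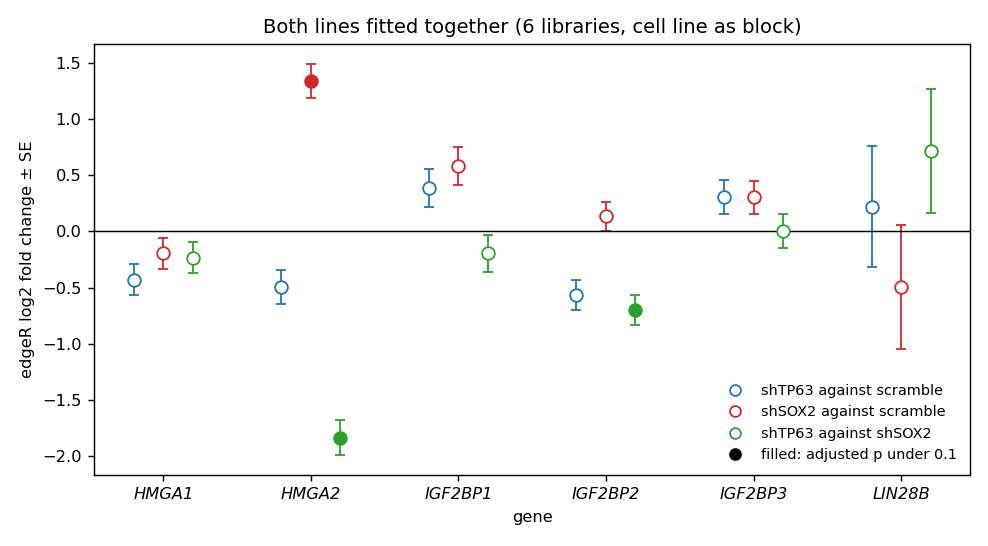
Log2 fold change ± SE in edgeR's fit (6 libraries, line as block), for shTP63 against scramble, shSOX2 against scramble and shTP63 against shSOX2; filled points have an adjusted p under 0.1. The filled points are HMGA2 at 1.34 and -1.84 and IGF2BP2 at -0.70.

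The lines themselves differed in 5 of the 6 members. IGF2BP3 was higher in KYSE140 than in TE5 by 1.47 on the log2 scale (SE 0.12, higher in 3 of 3 matched pairs of libraries, adjusted p = 6.81e-05, edgeR's quasi-likelihood test), as was LIN28B (adjusted p = 0.000106), whose ratio is given above. IGF2BP1 was higher by 0.48 (SE 0.14, adjusted p = 0.0189, edgeR) and HMGA1 by 0.27 (SE 0.11, adjusted p = 0.0717, edgeR), and HMGA2 was lower by 0.39 (fitted value -0.39, SE 0.12, adjusted p = 0.0302, edgeR). IGF2BP2 was at -0.07 (SE 0.11, adjusted p = 0.596, edgeR). These are differences between 2 lines, in which 66.1% of 23438 genes were called (34.3% lower and 31.8% higher), so that 5 of 6 members is near that background. The p-values treat the scramble, shTP63 and shSOX2 libraries of a line as its replicates.

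The calls of IGF2BP3 and LIN28B between lines held in 12 of 12 alternatives, that of IGF2BP1 in 11, that of HMGA2 in 9 and that of HMGA1 in 3. HMGA2 lost its call without the TE5 shSOX2 library (adjusted p = 0.171, edgeR), without the KYSE140 shSOX2 library (0.231) and without the condition as block (0.509). IGF2BP1 lost it under scaling by library totals (0.132).

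The other genes of the high mobility group, nucleosome-binding and DNA-bending proteins outside the HMGA class, are described next. Of 10, 0 were called upon SOX2 silencing by edgeR. At an unadjusted p under 0.05 there were 4, where 8.94% of all genes passed, and DESeq2, which called 4.75% of genes, called HMGB1, HMGB3 and HMGN1. These shares and those for shTP63 (14.4% and 12.5%) are the background of the lists that follow. HMGB3, a chromatin protein of stem and progenitor cells, had 7442 normalized counts in TE5 scramble and 3254 in shSOX2 (log2 fold change -1.19) and 15599 and 7711 in KYSE140 (-1.02). Its fitted value was -1.13 (SE 0.17, adjusted p = 0.135, edgeR).

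In the shTP63 fit 1 of the 10 was called lower. HMGN2, a nucleosome-binding protein, went from 31339 to 12591 counts in TE5 (log2 fold change -1.32) and from 35309 to 17560 in KYSE140 (-1.01), a fall by 1.16 in the fit (SE 0.15, adjusted p = 0.0645, edgeR; 8 of 12 alternatives). Between shTP63 and shSOX2, HMGN2 was called lower (-1.14, adjusted p = 0.0261, edgeR) and HMGB3 and HMGN1 higher (1.03 and 0.835, adjusted p = 0.0407 and 0.0374, edgeR), with 10, 8 and 8 of 12 alternatives. The median of the 10 was -0.07 for shSOX2 and -0.06 for shTP63, beside 0.01 and 0.04 over all genes tested.

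**Figure D5:**
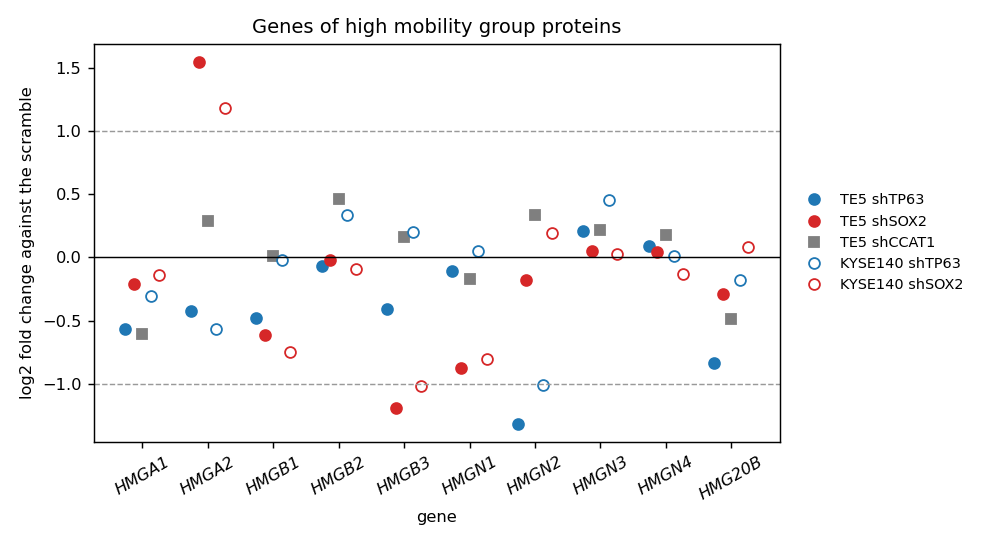
Log2 fold change against the scramble of the line for HMGA1, HMGA2 and 8 other genes of high mobility group proteins (not all listed genes are drawn); filled symbols are TE5, open symbols KYSE140. HMGA2 lies above 1 in both shSOX2 libraries, HMGB3 below -1 in both, and HMGN2 below -1 in both shTP63 libraries.

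Of 11 genes linked to HMGA proteins in the literature, among them cyclins, E2F1, RB1 and mesenchymal factors, 0 were called upon SOX2 silencing by edgeR, with 4 at an unadjusted p under 0.05 and PLAU called by DESeq2. PLAU, the urokinase-type plasminogen activator, went from 12264 to 26099 counts in TE5 (log2 fold change 1.09) and from 943 to 2048 in KYSE140 (1.12), the largest increase of this list in both lines. The largest decreases were E2F1 in TE5 (-0.69) and RB1 in KYSE140 (-0.56). In TE5 shTP63, PLAU was likewise the largest increase (0.81) and RB1 the largest decrease (-1.205). In KYSE140 shTP63, PLAU was at 0.035 and RB1 at -0.57. Upon TP63 silencing 1 was called, SNAI2, a zinc-finger repressor of epithelial genes, which fell by 0.74 (SE 0.13, adjusted p = 0.0997, edgeR; 7 of 12 alternatives) and was also lower than in shSOX2 (-0.88, adjusted p = 0.0373, edgeR; 8 of 12). DESeq2 called RB1, SNAI2 and VIM for shTP63. RB1 and VIM were below scramble in every knockdown library of both lines, from -1.205 to -0.181 and from -0.809 to -0.166. The part of the scramble libraries and their lanes in the RB1 and VIM values was not tested. The medians were -0.20 for shSOX2 and -0.22 for shTP63.

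Of 15 genes of let-7 biogenesis and decay, which include the LIN28B paralog LIN28A, the terminal uridylyltransferases and the microRNA processing enzymes, 0 were called by edgeR in either silencing. At an unadjusted p under 0.05 there were 1 for shSOX2 and 2 for shTP63, and DESeq2 called DICER1 and DROSHA, respectively. DICER1, which cuts the precursor to its mature form, was at 0.54 in TE5 shSOX2, the largest increase there, and DROSHA, which cuts the primary transcript, was at -0.84 in TE5 shTP63 and -0.21 in KYSE140 shTP63, the largest decreases. In KYSE140 shSOX2 the extremes were XPO5 (-0.135) and TARBP2 (0.605). The medians were 0.10 for shSOX2 and -0.07 for shTP63.

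The 7 host genes of let-7 clusters were sparse. Of the 5 tested, 0 were called by edgeR or DESeq2 for shSOX2 or shTP63, with 1 at an unadjusted p under 0.05 in each. MIRLET7BHG, a let-7 primary transcript host, was at 0.96 in TE5 shSOX2, from 223 to 436 counts, and at -0.305 in KYSE140. Between shTP63 and shSOX2, WDR82, a histone methyltransferase subunit whose locus hosts a let-7 gene, was called lower (-0.67, adjusted p = 0.0952, edgeR), in 4 of 12 alternatives. A host gene's level is not the level of the mature microRNA.

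Of 19 other let-7 target genes, 0 were called by edgeR for shSOX2 and 0 for shTP63, with 7 and 5 at an unadjusted p under 0.05, where 8.94% and 14.4% of all genes passed. DESeq2, which called 4.75% and 12.5% of genes, called ARID3A, E2F5 and IGF1R for shSOX2, and ARID3A, HRAS, INSR and MYC for shTP63. The largest increase upon SOX2 silencing in both lines was IGF1R, the receptor of the insulin-like growth factors, from 621 to 1196 counts in TE5 (0.94) and from 60 to 350 in KYSE140 (2.52). The largest decreases there were INSR in TE5 (-1.04) and E2F5 in KYSE140 (-1.55). IGF1R was also above scramble in TE5 shTP63 (0.446) and KYSE140 shTP63 (0.922), but below it in TE5 shCCAT1 (-0.795). INSR was likewise below scramble in TE5 shTP63 (-1.191) and KYSE140 shTP63 (-0.606), but not in TE5 shCCAT1 (0.054). MYC showed the largest decrease upon TP63 silencing in both lines, from 11766 to 3434 counts in TE5 (-1.78) and from 11392 to 6488 in KYSE140 (-0.81).

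In the comparison of shTP63 with shSOX2, 3 of these 19 were called lower, ARID3A (-1.15, adjusted p = 0.0343), ARID3B (-0.73, adjusted p = 0.0778) and MYC (-1.37, adjusted p = 0.0820, all edgeR; 8, 6 and 6 of 12 alternatives), which encode DNA-binding proteins. The medians of the list were 0.13 for shSOX2, -0.04 for shTP63 and -0.23 for their difference, beside 0.01, 0.04 and 0.04 over all genes. HMGA1, HMGA2, the IGF2BP genes and LIN28B together had medians of 0.22, -0.11 and -0.22.

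Of 16 mRNAs bound by IGF2BP proteins and protein partners, 1 was called upon TP63 silencing. CTNNB1, which encodes β-catenin and whose mRNA is bound by IGF2BP1, fell by 0.78 (SE 0.14, adjusted p = 0.0973, edgeR; 7 of 12 alternatives), with -0.88 in TE5 and -0.70 in KYSE140, and it was also lower than in shSOX2 (-0.83, adjusted p = 0.0413, edgeR). Upon SOX2 silencing 0 were called by edgeR and 3 passed an unadjusted p under 0.05, and DESeq2 called ELAVL1 and H19. H19, an imprinted fetal RNA next to IGF2, went from 274 to 701 counts in TE5 (1.35) and from 115 to 973 in KYSE140 (3.07), the largest increase in both lines. ELAVL1, an RNA-binding protein that shares mRNAs with the IGF2BP family, showed the largest decrease in both, -1.08 and -0.59. ELAVL1 was also below scramble in TE5 shTP63 (-1.004), TE5 shCCAT1 (-0.366) and KYSE140 shTP63 (-0.628), and DESeq2 called it for shTP63 as well. The part of the scramble libraries and their lanes in the ELAVL1 values was not tested. H19 was likewise above scramble in TE5 shTP63 (1.044), but below it in TE5 shCCAT1 (-0.277) and KYSE140 shTP63 (-0.101).

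Of the m6A writers, erasers and readers, 15 of 16 could be matched and 0 were called by edgeR or by DESeq2 in either silencing, with 2 at an unadjusted p under 0.05 for shSOX2 and 0 for shTP63. The extremes were METTL3 (-0.64) and WTAP (0.23) in TE5 shTP63, and CBLL1 (-0.76) and YTHDC1 (0.34) in KYSE140 shSOX2. Of 9 other oncofetal genes, 7 had enough counts and 0 were called by edgeR in either silencing, with 2 and 3 at an unadjusted p under 0.05 for shSOX2 and shTP63. DESeq2 called PEG10 for shSOX2, and CEACAM5 and PEG10 for shTP63. PEG10 was below scramble in every knockdown library of both lines, from -0.58 to -0.36. The part of the scramble libraries and their lanes in the PEG10 values was not tested. PLAG1, a zinc-finger activator of IGF2, was at 1.04 in TE5 shSOX2, from 968 to 1986 counts, and CEACAM5 was at 3.02 in TE5 shTP63, from 50 to 414 counts. GPC3, a fetal liver proteoglycan, was higher in shTP63 than in shSOX2 (0.92, adjusted p = 0.0947, edgeR; 5 of 12 alternatives).

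Among 12148 genes that had 100 counts or more in all 7 libraries, those with the most similar set of 5 log2 fold changes were named for each member, by the root mean square difference. HMGA2 had no close neighbour: TGFBR3 (0.364), a co-receptor of TGF-β, and IL1A (0.386), an epithelial cytokine, came nearest, at 1.40 and 1.10 in TE5 shSOX2 and 1.12 and 1.34 in KYSE140 shSOX2. The others had neighbours within 0.1, NRG1 (0.056) and NRBP2 (0.063) for HMGA1, RBIS (0.066) and PDE7A (0.099) for IGF2BP1, TBC1D14 (0.069) and PPP1R26 (0.077) for IGF2BP2, and NFKBIZ (0.048) and KCTD10 (0.049) for IGF2BP3. The 5 values share 2 scramble libraries, and many genes lie near 0 in all of them.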

How the data were processed

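RNA-Seq of 7 libraries (paired-end reads of 100 bases) was analysed. Per the labels and the study's methods, kallisto was run by the authors against Ensembl release 82 transcripts (hg19). They deposited, for each transcript, an estimated count, not scaled between libraries, and a TPM value. kallisto and DESeq2 are named in the submitters' processing notes, and their versions are not given in the sources used here.

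Transcript IDs were matched to genes with GENCODE 44 mapped to hg19 (182863 of 196354 transcripts, 93.58% of counts), and values were summed to genes. The other 13491 transcripts were left out and kept as single features in an alternative chosen after seeing the data. CCAT1, RBM15B and PECAM1 had no match. Shared words of 31 bases were counted in the GENCODE transcripts.

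Counts were scaled with edgeR's TMM method (edgeR 4.0.16, R 4.3.3). A knockdown library was set against its scramble by the log2 ratio of their normalized counts, after adding 1 to each, where either library reached 10 counts. These ratios have exact Clopper-Pearson 95% intervals, which cover counting error only, and no test. The 6 scramble, shTP63 and shSOX2 libraries were fitted with edgeR's quasi-likelihood test on rounded estimated counts, with line as block, the filterByExpr filter, 2 residual degrees of freedom and a Benjamini-Hochberg adjusted p under 0.1. The common dispersion was 0.0457. For the knockdowns, the p-values measure the spread of a knockdown's effect between 2 lines. KYSE140 was set against TE5 in the same fit, with condition as block. Those p-values measure how the line difference varies over differently silenced libraries of the same 2 lines, not over independent cultures. All replicate numbers are 1 and pair nothing; the pairing by line comes from the labels. On simulated counts for shTP63 against scramble, with a log2 change of 2 given to 200 of 22485 genes at dispersion 0.02, 93.5% were recovered and 10.1% of 208 calls were false. At 0.06 (22516 genes), 81.5% were recovered and 4.1% of 170 calls were false. The simulation gave both lines the same level of each gene and all genes the same dispersion. Its change of 2 is larger than the knockdown changes fitted for the members, so these rates do not tell how often such changes are called.

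Alternatives were DESeq2 1.42.0, its size factors, library totals, other filters, another pseudocount, TPM ratios, no block, coding transcripts alone and leaving out each library. The members and gene lists were chosen with earlier results of these data known. The genes named are the 6 members and the silenced genes, the largest decrease and increase of each list where the higher library had 100 counts or more, genes called in the fit, and the 2 nearest genes of each member with at least 100 counts in every library. Pseudogenes and antisense genes of a member were named by symbol. Genes called by DESeq2 alone were named after their values were seen. Python 3.11.15 with pandas 2.3.3 and scipy 1.17.1 was used. The values of 1 listed gene are not reported here.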

Additional observations from a re-analysis of the deposited data

How the results depend on the processing

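The direction of every called member was the same under all alternatives run, and no called value changed sign. The number of genes called in each fit depended strongly on the processing, for causes that were not tested. For shTP63 against scramble (220 genes; 174 lower and 46 higher), it was 1851 with DESeq2, 1211 with at least 1 count in 1 library as filter, 41 with library totals (28 lower and 13 higher), 0 without the block on the cell line, 0 with unannotated transcripts kept, and 0 to 2129 when 1 library was left out. For shSOX2 against scramble (34), it was 703, 390, 34, 0, 1 and 0 to 918 in the same order. For shTP63 against shSOX2 (988; 565 lower and 423 higher), it was 2620, 2050, 1028 (384 lower and 644 higher), 0, 1 and 127 to 2402. Either scramble library decided the lowest values: without the one of TE5 or of KYSE140, 1314 and 2426 genes for shTP63 and 1228 and 1106 for shSOX2 still had an unadjusted p under 0.05 in edgeR's test. The highest came without the KYSE140 shTP63 library (2129 and 2402) and the TE5 shTP63 library (918). Without the block, 200, 115 and 317 genes had an unadjusted p under 0.05, and 3336 did for shTP63 with unannotated transcripts kept, where DESeq2 was not run.

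Genes past -1 or 1 in a pair followed the filter and the pseudocount. With at least 1 count, at least 50 counts and a pseudocount of 10, there were 10874, 2216 and 2767 in TE5 shTP63, 9959, 708 and 1180 in TE5 shSOX2, 10616, 1215 and 2230 in TE5 shCCAT1, 8375, 806 and 1446 in KYSE140 shTP63, and 9386, 887 and 1674 in KYSE140 shSOX2. Scaling by library totals moved the median log2 fold change of all genes from 0.07 to 0.20 in TE5 shTP63 and from 0.02 to 0.19 in TE5 shCCAT1.

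A fit without a library assumes that the remaining lone sample varies like the others. The limits are 1 library per condition and line, a scramble library from another lane in each line, SOX2 left at 77.4% in KYSE140 shSOX2, and 6.42% of counts without an annotated gene.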
